A study of Mus musculus with 6 samples.

Results

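The natriuretic peptide system is described here through 7 genes: the hormones Nppa and Nppb, the receptors Npr1, Npr2 and Npr3, and the processing enzymes Corin and Furin. They were taken by symbol from a gene count table of 15159 genes, and all 7 had enough counts to be tested among 14758 genes. The cells came from hearts of C57BL/6 x 129S4/SvJae mouse embryos at embryonic day 18.5 and were held for 4 days on silicone (PDMS) of 13 kPa. Both groups carried a doxycycline-inducible histone H3.3 transgene and received doxycycline at 2 µg/ml. In the H3WT group the transgene encodes the wild-type protein, and in the H3K9M group its lysine 9 is replaced by methionine. Each group had 3 libraries of polyadenylated RNA, with 55550379 to 67994773 counts a library. The labels do not say which cells of the culture express the transgene, nor whether replicates of a group are different animals. The p-values therefore measure only the spread between these samples. Xist was at 71.3, 376 and 353 CPM in H3WT replicates 1, 2 and 3 and at 136, 265 and 148 CPM in H3K9M, and Y-linked transcripts were found in every library, so the libraries hold different mixes of female and male cells.

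Heart muscle cells make atrial natriuretic peptide (Nppa) and brain natriuretic peptide (Nppb) as longer precursors. Corin, a protease of the cell surface, cuts the atrial precursor, and furin, a protease of the secretory pathway, is the main enzyme known to cut the brain precursor. Both hormones bind the receptor encoded by Npr1, a guanylyl cyclase that makes the second messenger cGMP inside the target cell. Npr2 encodes the cyclase receptor for the related C-type peptide, and Npr3 encodes a receptor without a cyclase domain that takes the peptides up and clears them. In the embryo Nppa is made in atria and ventricles, ventricular expression declines around birth, and both hormone genes are widely used as marks of cardiomyocyte load.

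The hormone genes lie next to each other on the plus strand of chromosome 4 (GRCm38, also called mm10). Nppb spans chr4:147985788-147987205 and Nppa chr4:148000722-148002079. The RefSeq promoter sequences (GRCm38.p6) are shown because the 2 genes gave the highest fold changes of the set, and the capitals mark matches to motifs of cardiac transcription factors. For Nppa the 250 bases before the start are printed (chr4:148000472-148000721, plus strand). For Nppb the same window (chr4:147985650-147985899) was searched, and only the stretch from its first to its last match is printed (chr4:147985795-147985821, plus strand), because GENCODE M21 starts the first exon of Nppb inside the window. All of the printed Nppb stretch, and so every Nppb match, lies in that exon by GENCODE and before the start by RefSeq.
Nppa promoter: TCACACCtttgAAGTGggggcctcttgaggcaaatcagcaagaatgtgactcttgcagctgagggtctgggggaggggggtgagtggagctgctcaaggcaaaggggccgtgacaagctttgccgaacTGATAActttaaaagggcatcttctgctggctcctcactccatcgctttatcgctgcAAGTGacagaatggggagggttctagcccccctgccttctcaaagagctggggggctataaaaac
Nppb stretch: GGAATGcagcTGATAAatcagAGATAA

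Both strands were searched for the motifs of 6 kinds of factor. A GATA site was the word AGATAA or the word AGATAG, and likewise TGATAA with its variant spelled TGATAG. The core site of NKX2-5, a homeobox factor of heart muscle, was AAGTG. The core site of T-box factors was GGTGTGA, with GGTGTTA also allowed. The M-CAT element, bound by TEAD factors, was CATTCC. The AP-1 site was spelled TGANTCA, where N is any base. The CArG box of serum response factor was CC, then 6 bases that are each A or T, then GG. The Nppa window held a T-box core site on the minus strand at 250 to 244 bases before the start, NKX2-5 core sites at 239 to 235 and at 65 to 61, and a GATA site at 122 to 117. The Nppb window held an M-CAT element on the minus strand at 105 to 100 bases before the RefSeq start and GATA sites at 95 to 90 and at 84 to 79. None of these matches overlapped another. Of 32851 RefSeq promoter windows of this length, 26.54% held a GATA site, 40.71% an NKX2-5 core site, 4.62% a T-box core site and 12.64% an M-CAT element. An AP-1 site (6.75% of windows) and a CArG box (1.47%) had no exact match in either window. Sites that differ from the searched spelling were not counted. The bases ctttaaaagg right after the GATA site of Nppa differ from the CArG spelling at a single base. The GC content was 54.4% for Nppa and 54.8% for Nppb, against a median of 52.4% over all windows.

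Levels between genes were compared per kilobase of annotated exon, as CPM (counts scaled to the size of the library) divided by that length. In H3WT the mean order was Nppa (428 CPM per kilobase), Furin (29.4), Nppb (24.8), Npr2 (13.4), Corin (4.23), Npr3 (1.33) and Npr1 (0.267). Of neighbours in this order, only Furin and Nppb overlapped across the H3WT libraries, at 28.2 to 30.8 and 19.8 to 32.5 CPM per kilobase. In H3K9M the mean of Nppb (80.8 CPM per kilobase) lay above that of Furin (29.0), and their libraries did not overlap. The other 5 genes kept their places, at 1235 for Nppa, 11.7 for Npr2, 4.82 for Corin, 0.627 for Npr3 and 0.186 for Npr1.

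**Figure D1:**
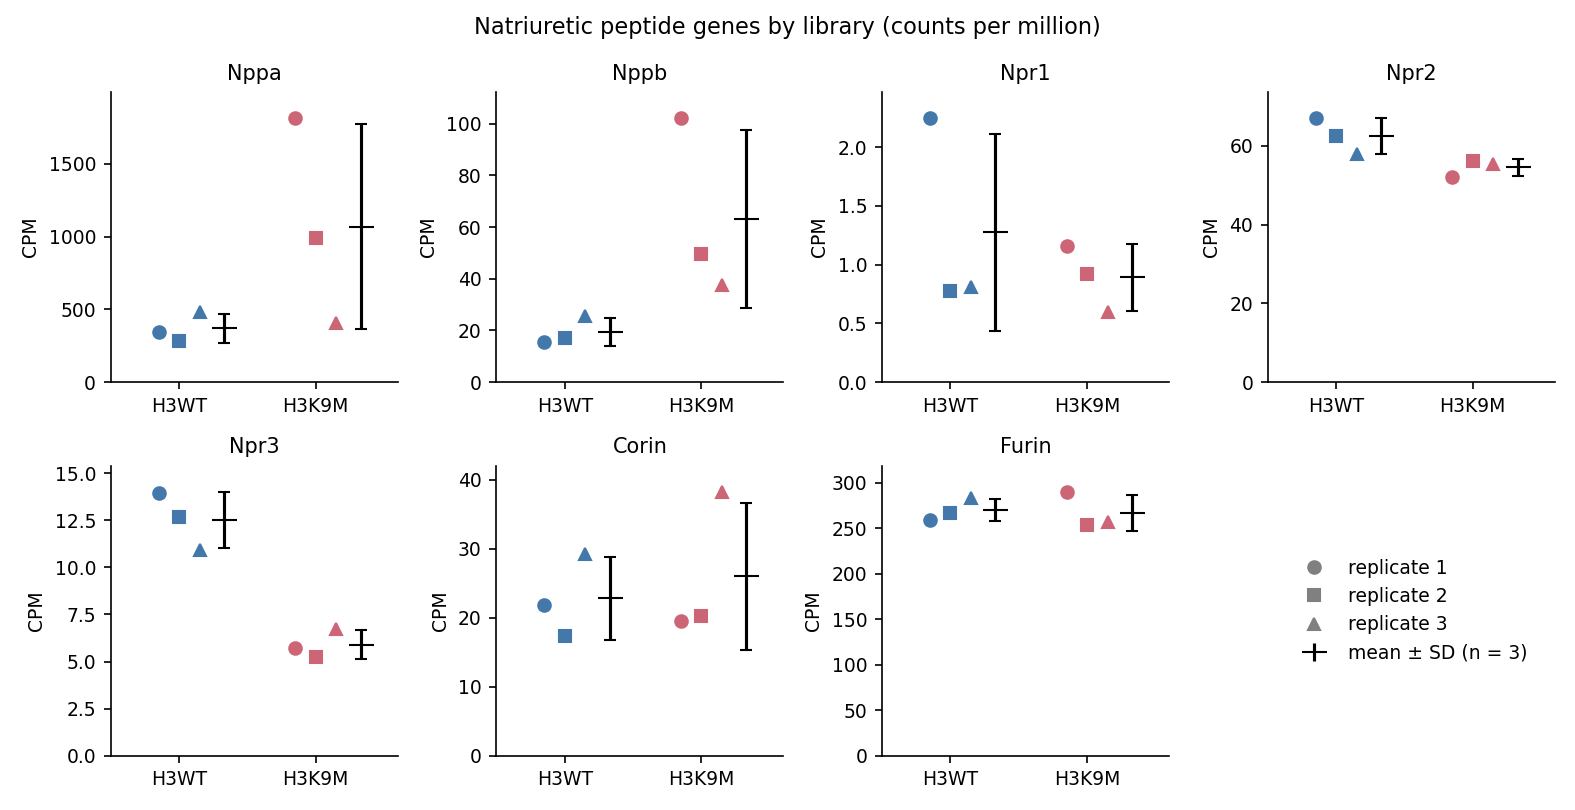
CPM (vertical axes, each starting at 0) of the 7 genes in the 3 H3WT libraries (blue) and the 3 H3K9M libraries (red), with the mean ± SD of each group as a black bar. The H3K9M libraries lie above all H3WT libraries for Nppb and below them for Npr2 and Npr3, and H3K9M replicate 1 is the highest library for both hormone genes.

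The libraries were compared to ask how the mutant histone alters the transcripts of these heart cells relative to the wild-type histone. Of the 7 genes only Npr3, the clearance receptor, passed the test of the group difference (edgeR quasi-likelihood test, Benjamini-Hochberg adjusted over all tested genes, threshold 0.05), and it fell. Over all tested genes 1.99% were called in either direction, 0.935% higher and 1.05% lower in H3K9M. The groups did not overlap for 3 of the 7 genes, Nppb above and Npr2 and Npr3 below, against 22.6% of all tested genes. The median log2 fold change of the 7 genes was -0.02, beside 0.00 over all tested genes.

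Npr3 (chr15:11839896-11907287, minus strand) was at 13.9, 12.6 and 10.9 CPM in H3WT replicates 1, 2 and 3, and at 5.74, 5.22 and 6.72 CPM in H3K9M replicates 1, 2 and 3. The highest H3K9M library lay well below the lowest H3WT library, and neither group held a library far from its other two. The gene fell by 1.09 ± 0.16 (SE) on the log2 scale, from 12.5 ± 1.5 to 5.89 ± 0.763 CPM (SD, n = 3 each), with an edgeR adjusted p of 0.0181. The 95% interval of the log2 fold change ran from -1.45 to -0.72. The raw counts behind these values were 702 to 782 a library in H3WT and 317 to 385 in H3K9M.

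The size of the fall changed little when each library was left out in turn, at -1.19 to -1.0 on the log2 scale, while the call was not. Leaving out H3WT replicate 2 gave an adjusted p of 0.0972 in edgeR, leaving out H3K9M replicate 1 gave 0.0607, and leaving out H3K9M replicate 2 gave 0.0748. It stayed under the threshold without each of the other libraries. With the replicate number added to the model, the log2 fold change was -1.09 and the edgeR adjusted p was 0.09998. In the authors' deposited table Npr3 had a log2 fold change of -1.38 with a standard error of 0.228 and an adjusted p of 3.69e-07.

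Npr2 (chr4:43631935-43651244, plus strand), the receptor of the C-type peptide, was the most abundant of the 3 receptor genes. It was at 66.9, 62.4 and 57.8 CPM in H3WT replicates 1, 2 and 3, and at 52.0, 56.1 and 55.4 CPM in H3K9M replicates 1, 2 and 3. The highest H3K9M library lay just below the lowest H3WT library. The log2 fold change was -0.19 ± 0.08 (adjusted p = 0.278 in edgeR), with a 95% interval of -0.38 to -0.01, so the difference did not pass the test over all genes.

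Npr1 (chr3:90450591-90465866, minus strand), the cyclase receptor for both cardiac hormones, was the least abundant of the 7 genes, with 34 to 126 counts a library. It was at 2.25, 0.775 and 0.808 CPM in H3WT replicates 1, 2 and 3, and at 1.16, 0.922 and 0.593 CPM in H3K9M replicates 1, 2 and 3. The groups overlapped, and H3WT replicate 1 alone stood apart. The log2 fold change was -0.51 ± 0.52 (adjusted p = 0.688 in edgeR), with a 95% interval of -1.71 to 0.68. Without H3WT replicate 1 it was 0.17 (adjusted p = 0.928 in edgeR), and in the authors' deposited table it was 0.24 ± 0.777, so its direction rests on 1 library. A change of Npr1 of the size seen for Npr3 lies inside the interval and was not detectable here.

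Ratios within a library do not depend on its scaling. With 3 libraries a group, a two-sided exact permutation test of such a ratio cannot give a p under 0.1, and 8 ratios were tested, 6 of them added after the data were seen. The ratio of Npr3 to Npr2 counts was 0.208, 0.203 and 0.189 in H3WT replicates 1, 2 and 3, and 0.110, 0.0930 and 0.121 in H3K9M replicates 1, 2 and 3. All H3K9M libraries lay below all H3WT libraries, with a mean log2 difference of -0.89 (exact permutation p = 0.1, adjusted over 8 ratios 0.2). The ratio of Npr3 to Npr1 was 6.21, 16.3 and 13.5 in H3WT and 4.94, 5.66 and 11.3 in H3K9M. These overlapped (log2 difference -0.71, exact permutation p = 0.2, adjusted 0.267).

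Nppb (chr4:147985788-147987205), the gene of brain natriuretic peptide, was at 15.5, 17.2 and 25.4 CPM in H3WT replicates 1, 2 and 3. It was at 102, 49.6 and 37.6 CPM in H3K9M replicates 1, 2 and 3. Every H3K9M library lay above every H3WT library, and the H3K9M libraries differed among themselves by more than the H3WT libraries did. The means were 19.4 ± 5.31 and 63.1 ± 34.2 CPM (SD, n = 3 each). The log2 fold change was 1.70 ± 0.35 with a 95% interval of 0.90 to 2.51, and its edgeR adjusted p of 0.0518 was just above the threshold.

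Nppb crossed the threshold in 4 of 14 alternative fits and stayed above it in the other 10, while its fold change kept its direction in each of them. DESeq2 on the same counts, which called 6.8% of genes in all, gave 1.71 with an adjusted p of 0.0164. In edgeR the adjusted p was 0.0444 with H3WT replicate 3 left out and 0.0474 with H3K9M replicate 3 left out. Without H3K9M replicate 1, the highest library, the log2 fold change was 1.17 (adjusted p = 0.0694 in edgeR). In the authors' deposited table it was 1.72 ± 0.557 with an adjusted p of 0.0497, in a comparison that called 4.1% of genes at that threshold.

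Nppa (chr4:148000722-148002079), the gene of atrial natriuretic peptide, was the most abundant of the 7 genes in every library. It was at 345, 286 and 480 CPM in H3WT replicates 1, 2 and 3, and at 1811, 989 and 405 CPM in H3K9M replicates 1, 2 and 3. H3K9M replicates 1 and 2 were above all H3WT libraries, and H3K9M replicate 3 was below H3WT replicate 3. The highest library was 4.47-fold the lowest in H3K9M and 1.68-fold in H3WT.

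The means of Nppa were 370.5 ± 99.7 CPM in H3WT and 1068 ± 706 CPM in H3K9M (SD, n = 3 each). The log2 fold change was 1.53 ± 0.45, with a 95% interval of 0.50 to 2.56, and the gene did not pass (adjusted p = 0.139 in edgeR). Without H3K9M replicate 3 it was 1.92 ± 0.29 and passed (adjusted p = 0.0379 in edgeR). Without H3K9M replicate 1 it was 0.91 (adjusted p = 0.320 in edgeR). In the authors' deposited table the log2 fold change was 1.52 ± 0.588 with an adjusted p of 0.145.

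The 2 hormone genes followed the same order of libraries within H3K9M. The ratio of Nppa to Nppb counts was 22.3, 16.7 and 18.9 in H3WT replicates 1, 2 and 3, and 17.8, 19.9 and 10.8 in H3K9M replicates 1, 2 and 3. The ratios overlapped, with a mean log2 difference of -0.29 (exact permutation p = 0.5, adjusted over 8 ratios 0.5). H3K9M replicate 3 was the lowest library.

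Corin (chr5:72300025-72504473, minus strand), the protease of the atrial precursor, was at 21.9, 17.3 and 29.2 CPM in H3WT replicates 1, 2 and 3. It was at 19.6, 20.2 and 38.3 CPM in H3K9M replicates 1, 2 and 3. Replicate 3 was the highest library of both groups, and the groups overlapped. The log2 fold change was 0.19 ± 0.28 (adjusted p = 0.798 in edgeR), with a 95% interval of -0.45 to 0.82, and it was -0.20 (adjusted p = 0.747 in edgeR) without H3K9M replicate 3.

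Furin (chr7:80388585-80405436, minus strand), the protease of the secretory pathway, was at 259, 267 and 283 CPM in H3WT replicates 1, 2 and 3. It was at 290, 253 and 256 CPM in H3K9M replicates 1, 2 and 3. The groups overlapped almost fully. Its log2 fold change of -0.02 ± 0.08 (adjusted p = 0.949 in edgeR) had a 95% interval of -0.20 to 0.17, the narrowest of the 7 genes after that of Npr2.

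**Figure D2:**
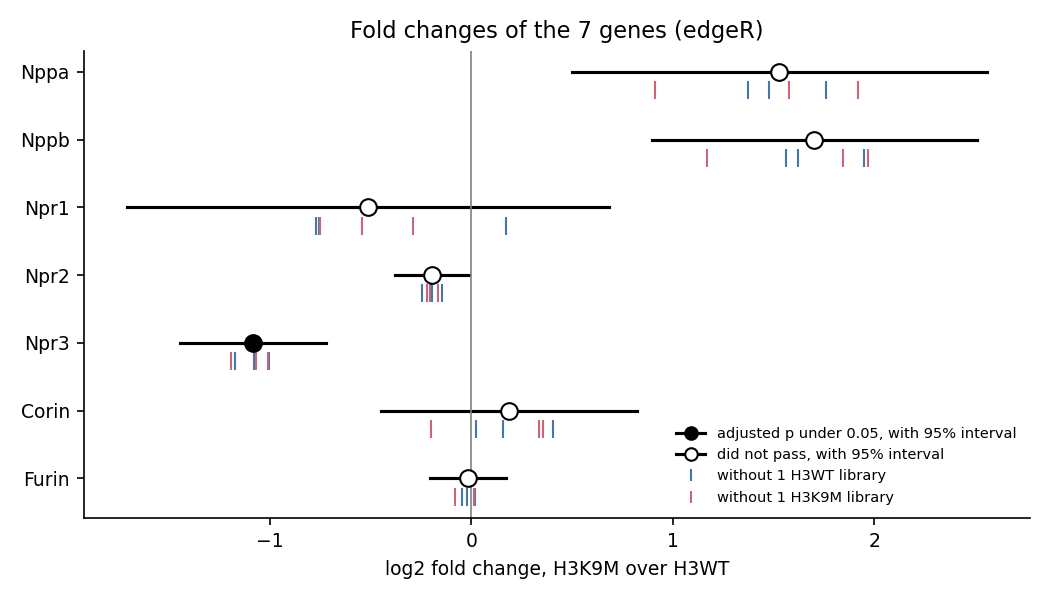
Log2 fold change of H3K9M over H3WT (horizontal axis) for each of the 7 genes from edgeR, with its 95% interval as a line and the values without 1 library as short ticks below. Npr3 alone passed (filled circle), the tick of Nppa without H3K9M replicate 1 lies at 0.91, and Npr1, Corin and Furin have ticks on both sides of 0.

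In 6 of the 7 genes the exons overlap those of an annotated gene on the opposite strand. The shared exon bases were 532 for Nppa (with Gm13054), 559 for Npr1, 266 for Npr2, 321 for Npr3, 147 for Corin and 118 for Furin, and Nppb shared none. None of these opposite-strand genes has a row in the count table. The strand setting of the counting is not given in the sources used here, so reads of such partners cannot be told apart from those of the 6 genes.

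None of the other genes of peptide processing and clearance passed the test. Of 18 listed, 13 were tested and 0 were called, with 4 positive and 9 negative log2 fold changes and a median of -0.19. The groups did not overlap for 3 of the 13, all below in H3K9M, against 22.6% of all tested genes in either direction. The C-type peptide gene Nppc and Ostn, whose product binds the clearance receptor, were not analysed here. Pcsk6, the protease known to activate corin, was at 63.8, 31.3 and 30.7 CPM in H3WT and 38.9, 45.4 and 84.2 CPM in H3K9M (log2 fold change 0.42 ± 0.35, adjusted p = 0.601 in edgeR). Mme, the gene of neprilysin, which degrades the peptides, was at 2.48 to 3.80 CPM in H3WT and 0.973 to 3.70 CPM in H3K9M (adjusted p = 0.739 in edgeR). Ide, the gene of another degrading protease, was at 106 to 150 and 130 to 200 CPM (log2 fold change 0.49 ± 0.18, adjusted p = 0.228 in edgeR). Pam, a peptide-amidating enzyme and the most abundant of this list per kilobase, had a log2 fold change of 0.06 ± 0.13. Pcsk5, a convertase related to furin and picked out after its values were seen, was lower in every H3K9M library, at 22.8, 24.6 and 26.9 CPM against 14.5, 16.9 and 18.7 CPM (log2 fold change -0.57 ± 0.12, adjusted p = 0.0576 in edgeR).

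The cGMP list holds the nitric oxide route, a source of cGMP parallel to the receptors, together with the enzymes that degrade cGMP and its targets. Of 28 such genes 25 were tested, with a median log2 fold change of -0.02. In this list 1 was called higher and 1 lower, beside 0.935% and 1.05% of all tested genes. Every H3K9M library lay above every H3WT library for 4 of the 25 and below for 5, against 22.6% of all tested genes in either direction. Pde2a, a phosphodiesterase that cGMP itself stimulates, was at 46.8, 56.0 and 46.5 CPM in H3WT replicates 1, 2 and 3, and at 90.9, 80.3 and 86.7 CPM in H3K9M. It rose by 0.79 ± 0.09 on the log2 scale (adjusted p = 0.00695 in edgeR), and the call held without any 1 library. Nos3, the endothelial nitric oxide synthase, was at 9.62, 8.20 and 11.0 CPM in H3WT and 4.73, 5.76 and 3.77 CPM in H3K9M, and it fell by 1.02 ± 0.20 (adjusted p = 0.0444 in edgeR). That call was lost without each of the 6 libraries, with edgeR adjusted p-values of 0.0753 to 0.126, and with limma-voom (0.0517).

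The soluble guanylyl cyclase, which nitric oxide activates, is a dimer of an alpha and a beta subunit. Its beta subunit gene Gucy1b3 was at 148, 169 and 133 CPM in H3WT and 83.2, 114 and 108 CPM in H3K9M (log2 fold change -0.56 ± 0.13, adjusted p = 0.0763 in edgeR). The groups did not overlap, yet the gene did not pass. The alpha subunit gene Gucy1a3 was at 205, 181 and 87.7 CPM against 41.2, 105 and 95.8 CPM, with overlap between the groups (log2 fold change -0.97 ± 0.38, adjusted p = 0.251 in edgeR). Gucy1a2, another alpha subunit gene picked out after its values were seen, had the opposite sign. It was at 12.9, 12.4 and 10.2 CPM in H3WT and 13.5, 14.5 and 15.4 CPM in H3K9M. Its groups did not overlap and it did not pass (log2 fold change 0.29 ± 0.13, adjusted p = 0.323 in edgeR).

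Prkg1, the main cGMP-dependent kinase of muscle, was at 34.5, 31.2 and 27.6 CPM in H3WT and 16.9, 19.96 and 23.8 CPM in H3K9M (log2 fold change -0.62 ± 0.14, adjusted p = 0.0723 in edgeR). Pde3a, a phosphodiesterase that cGMP inhibits and that was picked out after its values were seen, was at 82.4, 79.6 and 59.9 CPM against 39.1, 51.5 and 48.5 CPM (log2 fold change -0.67 ± 0.14, adjusted p = 0.0572 in edgeR, and 0.0175 without H3WT replicate 3). For both genes every H3K9M library lay below every H3WT library, and edgeR did not call them. DESeq2 called Prkg1, Pde3a, Gucy1b3 and Pcsk5 lower, with adjusted p-values of 0.00276, 0.000521, 0.00218 and 0.00243. In all, DESeq2 called 6.8% of genes in either direction, against 1.99% in edgeR. Pde5a and Pde9a, which degrade cGMP, had log2 fold changes of -0.02 ± 0.12 and -0.97 ± 0.33 (adjusted p in edgeR 0.968 and 0.199). Pln, the phospholamban gene and the most abundant of this list per kilobase, was at 652 to 771 CPM in H3WT and 884 to 984 CPM in H3K9M (log2 fold change 0.36 ± 0.09, adjusted p = 0.0974 in edgeR).

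**Figure D3:**
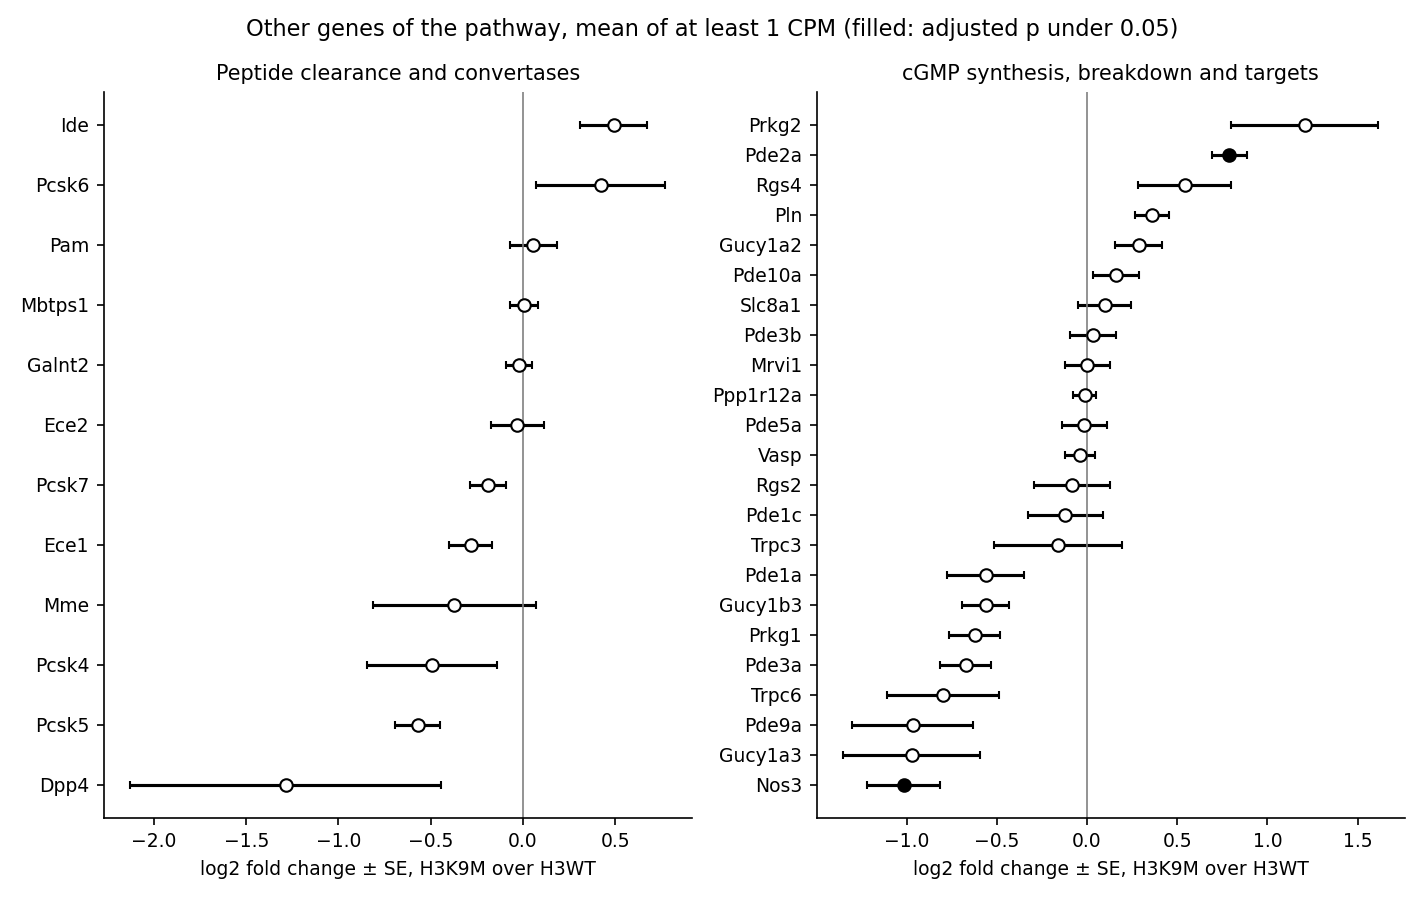
Log2 fold change ± SE of H3K9M over H3WT (horizontal axes) from edgeR for the other genes of peptide clearance and processing (left) and of cGMP signalling (right) with a mean of at least 1 CPM. Only Pde2a on the right side of 0 and Nos3 on the left passed the test (filled circles).

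Of 40 transcription factors and cofactors known to act at the 2 hormone promoters, all were tested and 0 were called, with 19 positive and 21 negative log2 fold changes and a median of -0.04. Gata4, the most abundant per kilobase, was at 249 to 274 CPM in H3WT and 229 to 255 CPM in H3K9M (log2 fold change -0.12 ± 0.08, adjusted p = 0.520 in edgeR). Egr1 and Fos, immediate early genes picked out after their values were seen, stood apart in the library with the highest hormone transcripts. Egr1 was at 653 CPM in H3K9M replicate 1 and at 77.1 to 166 CPM in the other 5 libraries, and Fos at 30.8 and 3.34 to 6.02 CPM. Neither passed, with edgeR adjusted p-values of 0.432 and 0.463, and their part in the hormone values was not tested.

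Genes that accompany the hormones in loaded cardiomyocytes mostly had positive log2 fold changes, without a call. Of 17 such stress genes 0 passed and 14 had positive values. Their median was 0.31, beside 0.00 over all tested genes. For 2 of the 17 every H3K9M library lay above every H3WT library, and for 0 below, against 22.6% of all tested genes in either direction. Ankrd1, the most abundant per kilobase of the genes with an exon length (Ctgf had none here), had a log2 fold change of 0.09 ± 0.15. It was at 1673, 1814 and 2051 CPM in H3WT and 2436, 1669 and 1795 CPM in H3K9M, so only H3K9M replicate 1 was above all H3WT libraries. Xirp2, a protein of the intercalated disc picked out after its values were seen, was at 17.4, 14.9 and 42.2 CPM in H3WT and 90.7, 38.9 and 29.1 CPM in H3K9M, with H3K9M replicate 1 again highest (adjusted p = 0.315 in edgeR). Mybpc2, a myosin-binding protein chosen in the same way, was at 6.93, 4.59 and 7.77 CPM against 24.0, 10.2 and 11.7 CPM, with no overlap (log2 fold change 1.25 ± 0.33, adjusted p = 0.106 in edgeR and 0.00195 with DESeq2).

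Since Nppa marks atrial muscle, atrial and ventricular genes were compared too. Of 16 tested atrial genes 2 were called higher and 0 lower, beside 0.935% and 1.05% of all tested genes. Their median log2 fold change was 0.11. Myl7, the atrial regulatory light chain, was at 24.2, 34.3 and 38.7 CPM in H3WT and 103, 94.4 and 60.7 CPM in H3K9M, and it rose by 1.41 ± 0.22 on the log2 scale (adjusted p = 0.0221 in edgeR). Clu, the gene of the secreted chaperone clusterin, was at 369, 323 and 316 CPM against 1090, 713 and 540 CPM, and it rose by 1.22 ± 0.22 (adjusted p = 0.0376 in edgeR). Myl7 no longer passed when H3WT replicate 2 or either of H3K9M replicates 1 and 2 was left out (adjusted p in edgeR 0.109, 0.0650 and 0.0939). That on Clu was kept only without H3K9M replicate 1 (0.0353) or H3K9M replicate 3 (0.0230), and it was 0.0592 to 0.160 in edgeR without each of the others. For 2 of the 16 genes every H3K9M library lay above every H3WT library, and for 2 below, against 22.6% of all tested genes in either direction. The 2 below, picked out after their values were seen, were not called. Gja5, a gap junction gene, was at 15.9, 10.7 and 10.4 CPM in H3WT and 6.71, 7.95 and 7.42 CPM in H3K9M (log2 fold change -0.74 ± 0.19, adjusted p = 0.0940 in edgeR). Kcna5, a potassium channel gene, was at 1.19 to 2.46 and 0.239 to 0.675 CPM (log2 fold change -1.71 ± 0.51, adjusted p = 0.141 in edgeR). Of 12 ventricular genes 0 were called, with a median of -0.07, and Myl2, the most abundant per kilobase, had a log2 fold change of 0.09 ± 0.08. Atrial myosin Myl4, chosen after its values were seen, was at 134, 191 and 383 CPM in H3WT and 270, 168 and 143 CPM in H3K9M (adjusted p = 0.763 in edgeR).

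These are bulk libraries of a mixed culture, in which fewer cells of a type and less RNA per cell cannot be told apart. All 10 cardiomyocyte markers were detected in every library, and their summed level was 28266 to 35066 CPM in H3WT and 29920 to 33904 CPM in H3K9M. None of the 10 was called, 8 had positive log2 fold changes, and Actc1, the most abundant per kilobase, had a log2 fold change of 0.03 ± 0.11. Nppb per 1000 CPM of these markers was 0.521, 0.607 and 0.725 in H3WT replicates 1, 2 and 3, and 3.01, 1.66 and 1.12 in H3K9M replicates 1, 2 and 3. The groups did not overlap on this scale either (mean log2 difference 1.54, exact permutation p = 0.1, adjusted over 8 ratios 0.2). Nppa on the same scale was 11.6, 10.1 and 13.7 against 53.4, 33.05 and 12.1, which overlapped (mean log2 difference 1.24, exact permutation p = 0.2, adjusted 0.267).

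Npr3 is known from endocardium and from other non-muscle cells of the heart. The summed level of 20 endothelial and endocardial markers was 1011, 1237 and 1358 CPM in H3WT replicates 1, 2 and 3, and 910, 1045 and 1021 CPM in H3K9M replicates 1, 2 and 3. These sums overlapped, and Ptprb and Eng made up the largest shares. Of the 20 markers 1 was called, beside 1.99% of all tested genes. It was Robo4, which fell by 1.14 ± 0.23 on the log2 scale (adjusted p = 0.0453 in edgeR). That call was kept only without H3WT replicate 3 and lost without each of the other libraries (0.111 to 0.200 in edgeR). The median log2 fold change of the list was -0.59, with 18 negative values. The groups did not overlap for 9 of the 20 markers, 8 of them below and Nfatc1 above in H3K9M, against 22.6% of all tested genes in either direction. Eng, the most abundant per kilobase, had a log2 fold change of 0.02 ± 0.08.

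Npr3 per 1000 CPM of the endothelial markers was 13.8, 10.2 and 8.06 in H3WT replicates 1, 2 and 3, and 6.30, 4.99 and 6.58 in H3K9M replicates 1, 2 and 3. The groups did not overlap, with a mean log2 difference of -0.82 (exact permutation p = 0.1, adjusted 0.2). Relative to Cdh5 alone, the cadherin of endothelial junctions, the ratio was 0.261, 0.222 and 0.123 in H3WT and 0.148, 0.0937 and 0.177 in H3K9M, which overlapped (mean log2 difference -0.51, exact permutation p = 0.3, adjusted 0.343). Relative to 12 fibroblast markers the mean log2 difference was -1.0, again without overlap (exact permutation p = 0.1, adjusted 0.2). The summed fibroblast level was 13616 to 20190 CPM in H3WT and 12627 to 19444 CPM in H3K9M, and the collagens Col1a1, Col1a2 and Col3a1 made up most of it. The median log2 fold change of the 12 fibroblast markers was -0.56, close to that of the endothelial list, with 8 negative values. Of the fibroblast markers outside the collagens, picked out after their values were seen, Tcf21 had a log2 fold change of -0.88 ± 0.35, Lum -1.0 ± 0.49 and Dpt -1.41 ± 0.60, and none of these passed (adjusted p in edgeR 0.253, 0.358 and 0.286). H3WT replicate 1 was the highest library for each of them, with Dpt at 161, 50.9 and 25.7 CPM in H3WT replicates 1, 2 and 3. The list also held 4 positive values. Among them Ddr2 had 0.66 ± 0.10, Thy1 0.58 ± 0.12 and Postn 0.01 ± 0.15 (adjusted p in edgeR 0.0210, 0.0565 and 0.983). The part of the endothelial and fibroblast markers in the fall of Npr3 was not tested beyond these ratios.

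**Figure D4:**
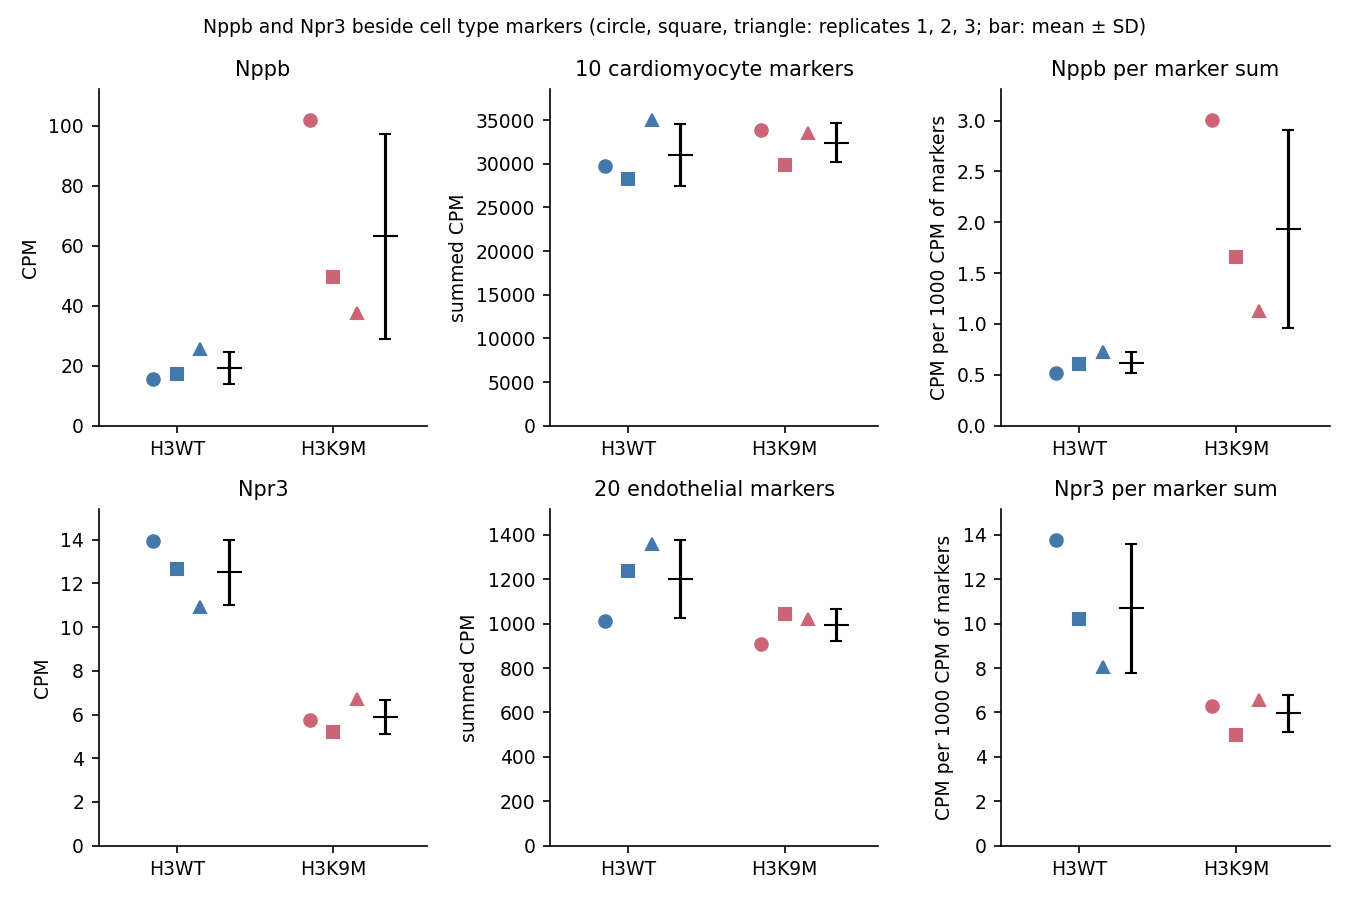
Nppb with 10 cardiomyocyte markers (top row) and Npr3 with 20 endothelial and endocardial markers (bottom row): the gene in CPM, the summed markers in CPM and the gene per 1000 CPM of markers (vertical axes from 0), by library, with mean ± SD as bars. The ratio of Nppb lies between 1.12 and 3.01 in H3K9M and at most 0.725 in H3WT, and that of Npr3 at most 6.58 in H3K9M and at least 8.06 in H3WT.

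Markers of other cell types were present in both groups at overlapping summed levels. For 10 smooth muscle and mural genes the sums were 5970 to 7710 CPM in H3WT and 5680 to 6248 CPM in H3K9M, for 10 epicardial genes 106 to 174 and 114 to 129 CPM, and for 10 leukocyte genes 141 to 517 and 210 to 269 CPM. The median log2 fold changes of these lists were -0.04, 0.29 and -0.37, and 9 of the 10 leukocyte genes had negative values. Of these lists and that of the fibroblast markers, Krt8 (epicardial list) and Ddr2 (fibroblast list) were called higher and 0 genes were called lower. Over all tested genes the shares were 0.935% higher and 1.05% lower. Both calls were lost without H3WT replicate 2 or H3K9M replicate 2, and that on Ddr2 also without H3K9M replicate 1 or H3K9M replicate 3 (adjusted p in edgeR 0.0514 to 0.0979). Of 9 erythroid and platelet genes only Pf4 was tested, at 0.720 to 3.40 CPM, and the others were not analysed here.

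The genes beside the 2 hormone genes on chromosome 4 did not pass. Toward lower coordinates from Nppb lies 2510039O18Rik, with a log2 fold change of -0.02 ± 0.09 (adjusted p = 0.939 in edgeR). Beyond Nppa lies Clcn6, a chloride transporter gene whose annotated end is 2.18 kb away. It had mean levels of 14.6 ± 1.90 CPM (H3WT) and 18.3 ± 3.13 CPM (H3K9M, SD, n = 3 each) and a log2 fold change of 0.33 ± 0.15 (adjusted p = 0.333 in edgeR). Of the 6 nearest genes with a row around Npr3 (Tars, Adamts12, Rxfp3, Sub1, Zfr and Mir1898) 0 were called, and Sub1, the nearest at 74.1 kb, had a log2 fold change of -0.27 ± 0.12 (adjusted p = 0.300 in edgeR).

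The genes whose log2 CPM was most like that of a member over the 6 libraries were taken from about 10846 genes with a mean of at least 5 CPM, as a description. The points share the 2 groups, so a group difference alone gives a high correlation. For Nppb the 5 were Usp7 (Pearson r 0.998), Carhsp1 (0.991), Sprr1a (0.991), Ipo13 (0.990) and Cystm1 (0.990). Only Sprr1a passed. Usp7, Carhsp1, Ipo13 and Cystm1 had log2 fold changes of 0.14, 0.24, 0.32 and 0.59 (adjusted p in edgeR 0.369, 0.178, 0.145 and 0.0888). Sprr1a, a small proline-rich protein gene, was at 15.6, 22.9 and 32.3 CPM in H3WT and 172, 90.5 and 59.6 CPM in H3K9M, and it rose by 2.19 ± 0.39 on the log2 scale (adjusted p = 0.0362 in edgeR). That call was kept without H3WT replicate 3 or H3K9M replicate 3 and lost without each of the others (0.0542 to 0.150 in edgeR). For Nppa they were Pak6 (0.996), Ptcd2 (0.993), Eppk1 (0.986), Fam73b (0.984) and Naa16 (0.977), none of which passed. For Npr3 they were 1700120C14Rik (0.991), Aldh1a7 (0.991), Tia1 (0.990), Slx1b (0.989) and Alcam (0.986), of which the first 4 fell, by 1.17, 1.16, 0.48 and 0.77 on the log2 scale (adjusted p in edgeR 0.0210, 0.0197, 0.0421 and 0.0433). None of these 4 kept its call when H3WT replicate 2 or any 1 of the H3K9M libraries was left out, with adjusted p-values in edgeR of 0.0529 (Aldh1a7) to 0.169 (Tia1). Tia1 and Slx1b also lost it without H3WT replicate 1 (0.0918 and 0.105 in edgeR), and Slx1b without H3WT replicate 3 (0.0521 in edgeR).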

How the data were processed

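Reads were mapped and counted by the authors with HISAT2 and featureCounts on mm10, per the submitters' processing notes, which also name DESeq2. Tool versions and the strand setting of the counts: not given in the sources used here. One deposited table holds whole-number counts for each gene (15159 rows, smallest row total 19). Their second deposited table holds their own comparison: a mean normalised count (a signal), the log2 fold change and its error, a p-value with its adjusted form, and the Wald statistic, a score that was not used here. Mean normalised counts computed from the deposited counts were 3.94-fold those of the authors' deposited table in the median over 14412 shared genes, so that table rests on other counts. The labels of replicate 2 of both groups do not repeat the word soft, and the series' design text gives soft substrates for all.

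Genes were filtered with filterByExpr (minimum count 10, minimum total 15), normalised with TMM and tested for the group term, with no covariate, by quasi-likelihood in edgeR 4.0.16 (R 4.3.3). P-values were adjusted over 14758 genes by Benjamini-Hochberg, with a threshold of 0.05. The median standard error of a log2 fold change was 0.133. Levels are CPM of the TMM-scaled library, and exon lengths are from GENCODE M21. Pairs of replicates differed by a chi-square of 26.5 to 117.8 per gene, so no library was a copy of another. The steps were tested on simulated data, where 10 of 175 edgeR calls and 48 of 225 DESeq2 calls were false. Alternatives were DESeq2 1.42.0, limma-voom (limma 3.58.1), other scalings, filters and thresholds, a block on the replicate number, and each library left out in turn. The members and lists were chosen with earlier results of these data known. The rule for other named genes was: in each list, genes past the threshold and the one with the highest CPM per kilobase, and cGMP and peptide genes needed for their role; the 5 genes most like Nppa, Nppb and Npr3; and the nearest genes on each side. Not every gene the rule allows is reported here. Most genes named outside it are marked as picked after their values were seen. Some cell type markers, such as Thy1, Postn, Nfatc1, Ptprb, Cdh5 and the collagens, were also named outside it and carry no mark.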

Additional observations from a re-analysis of the deposited data

How the results depend on the processing

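Over 97 alternative fits of the 7 genes, 92 kept the direction of the reported value. The 5 that did not were Npr1 without H3WT replicate 1 (0.17), Corin without H3K9M replicate 3 (-0.20) and Furin when H3WT replicate 3 (0.0186), H3K9M replicate 2 (0.01) or H3K9M replicate 3 (0.01) was left out. Npr1 was not tested with the stricter filter of 5 CPM in 3 libraries. The log2 fold change with 1 library left out ranged from 0.91 to 1.92 for Nppa, 1.17 to 1.97 for Nppb, -0.77 to 0.17 for Npr1, -0.25 to -0.14 for Npr2, -1.19 to -1.0 for Npr3, -0.20 to 0.41 for Corin and -0.0821 to 0.0186 for Furin. Nppb also passed with DESeq2 (1.71, adjusted p = 0.0164) and with upper quartile factors (1.69, edgeR adjusted p = 0.0496). Among 44 other named genes the direction reversed for Pde5a with limma-voom (0.00604) and without 1 library (range -0.134 to 0.0673), for 2510039O18Rik without H3WT replicate 3 (range -0.0944 to 0.0626), and for Egr1 and Fos without H3K9M replicate 1 (ranges -0.35 to 1.72 and -0.58 to 1.73). The cause of these changes was not tested.

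The count of called genes was 138 higher and 155 lower. It was 471 and 539 with DESeq2, 31 and 28 at an adjusted p under 0.01, 308 and 356 at under 0.1, and 30 to 149 higher and 30 to 223 lower without 1 library. The deviations of same-numbered libraries from their group means had correlations of -0.16, 0.03 and -0.07. With 3 libraries a group these cannot decide whether the numbers pair the libraries. The labels carry the same M number in both groups for replicate 1 (M1) and replicate 3 (M5), and not for replicate 2 (M2 and M3). With the replicate number as a block 31 genes were called higher and 27 lower, and Npr3 was at -1.09 with an edgeR adjusted p of 0.09998. The 12 other named genes called by edgeR also lost their calls with the block, with adjusted p-values of 0.0612 (Clu), 0.0620 (Pde2a) and up to 0.164 (Nos3). With limma-voom the calls on Nos3 (0.0517), Robo4 (0.0744), Krt8 (0.0916), Slx1b (0.0560) and Sprr1a (0.0507) were lost, and DESeq2 also called Prkg1, Pde3a, Gucy1b3, Pcsk5, Prkg2 (0.0229), Mybpc2 and Alcam (0.00389). Npr1 had the fewest counts of the 7 genes, 34 to 126 a library, and what sets its error was not tested.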

Other observations

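In the authors' deposited table Npr2 had a log2 fold change of -0.22 ± 0.131, Corin 0.22 ± 0.227 and Furin -0.08 ± 0.102, with adjusted p-values of 0.504, 0.774 and 0.833. The mean normalised count computed from the deposited counts was 3.76-fold (Nppb) to 4.49-fold that of the authors' deposited table for the 7 genes. For Npr1, the gene with the fewest counts, the deposited counts and that table gave log2 fold changes of opposite sign.

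Among the named genes of the pathway, Prkg2, a second cGMP-dependent kinase picked out after its values were seen, was at 2.05, 3.08 and 6.74 CPM in H3WT and 12.1, 7.41 and 7.96 CPM in H3K9M. Its groups did not overlap and its log2 fold change of 1.21 ± 0.41 did not pass (edgeR adjusted p = 0.191, 0.0242 without H3WT replicate 3, and 0.0229 with DESeq2). Prkg1, the other kinase gene, had the opposite sign.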
